A study of Homo sapiens with 12 samples.

Results

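The genes described here are the EGF receptors EGFR, ERBB2 and ERBB3, the ligands AREG, EREG, HBEGF and TGFA, and the receptor inhibitor ERRFI1. They were chosen by name, and each matched 1 Ensembl gene, giving 8 of the 56632 genes in the tables. All 8 passed the filter on low counts that left 16275 genes for testing. The libraries came from MCF10A, an established non-tumorigenic human mammary epithelial line, either wild type (WT) or with CBFB knocked out by CRISPR-Cas9 (CBFB_KO). Knockout cells were picked as colonies grown from single cells, and how many clones stand behind these libraries is not given in the sources used here. CBFB is the partner of the RUNX transcription factors, and the study asked whether it also acts on the translation of mRNAs in the cytoplasm. Cells were treated with 100 µg/ml cycloheximide for 30 min, which holds ribosomes on mRNA, and their lysates were run on 10% to 50% sucrose gradients. RNA was sequenced from the fraction without ribosomes (free), with 1 ribosome (mono) and with several ribosomes (poly). Both genotypes shared a medium with 5% horse serum, 20 ng/ml EGF, cholera toxin at 100 ng/ml, insulin at 10 µg/ml and hydrocortisone at 500 ng/ml. Every cell therefore received EGF from outside. There were 2 replicates in each of 6 groups, 12 libraries in all.

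EGF receptors are tyrosine kinases of the cell surface. A ligand binds the outside of the receptor, pairs of receptors form, and the kinase signals through RAS and the MAPK cascade and through PI3K and AKT to growth and survival. EGFR is bound by AREG, EREG, HBEGF and TGFA, which are made as membrane-bound precursors and cut free by ADAM proteases. ERBB2 has no known soluble ligand of its own and ERBB3 has a weak kinase, so both act mainly as partners in pairs. ERRFI1 is induced by the signal and blocks the EGFR and ERBB2 kinases. MCF10A cells depend on added EGF for normal growth.

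Levels across libraries are given as CPM, the share of a gene in the counts of its library after TMM scaling, which sets the average mRNA of all libraries equal. No spike-in ties a library to the amount of RNA in its fraction, so a higher value does not mean more molecules. Such a value is high relative to the average mRNA of that library, and need not be a larger share of its counts. The TMM factors were 0.494 and 0.241 in CBFB_KO free and 1.124 and 1.241 in WT free. In bulk RNA, fewer cells carrying a transcript and less RNA per cell cannot be told apart. A gene is called where edgeR's quasi-likelihood test gave a Benjamini-Hochberg adjusted p under 0.05 over all 16275 genes. Nothing in the labels says that replicates came from separate cultures, so p-values measure the spread between these samples, which may be technical. Differences are log2 values with their standard error (SE), and group values are mean ± SD with n = 2.

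The libraries held 41050325 to 63886726 counts. Genes of the mitochondrial genome took 71.6% and 87.2% of the CBFB_KO free libraries and 1.26% to 20.8% of the others. This left 13568143 and 5247878 other counts in the CBFB_KO free libraries and at least 43279862 elsewhere. The CBFB_KO poly replicates were nearly alike, with a mean chi-square of 2.2 per gene, against 118.5 to 597.5 in the other pairs. CBFB mRNA was present in every library, at 5.37 and 12.6 CPM in WT free and 11.3 and 14.1 CPM in CBFB_KO free. It was at 8.03 and 6.2 CPM in WT mono against 4.79 and 3.89 in CBFB_KO mono, and at 5.72 and 6.84 CPM in WT poly against 3.59 and 4.01 in CBFB_KO poly. None of these differences was called (adjusted p 0.373 to 1), and since a small CRISPR deletion can leave the mRNA, its level checks no label. Of 6 basal markers all were detected in every library. KRT5 and KRT17 were at 92.7 TPM or more, ITGB4 at 43.9 or more and CDH3 at 7.23 or more. KRT14 ranged from 0.984 to 133 TPM and TP63 from 0.149 to 86.1 TPM. Among luminal markers the keratins KRT8 and KRT18 were at 66.5 TPM or more. GATA3 ranged from 0.327 to 59.1 TPM and FOXA1 from 0.0545 to 29.6 TPM. ESR1 was at 0.794 TPM or less, and PGR was at 0 in all 12 libraries. Of the markers of other cell types, PTPRC of leukocytes, CDH5 of endothelium and COL1A2 of fibroblasts were at 0 in all 12. CD14 of the leukocyte list was at 1.26 to 26.9 TPM and COL1A1 of the fibroblast list at 0.0442 to 3.14 TPM in every library. The summed leukocyte list was at 20 to 26.9 TPM in WT poly and 9.97 to 10.5 TPM in CBFB_KO poly, and at 5.96 to 6.2 TPM in WT free and 2.33 to 3.07 TPM in CBFB_KO free. The summed fibroblast list was at 3.89 TPM or less and the endothelial list at 0.0306 TPM or less. The part of these in the results was not tested.

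In the study CBFB reached mRNAs with hnRNPK, a protein that binds runs of C. The longest C runs of the 4 members called in the free fraction are therefore shown. They come from the principal GENCODE release 29 transcript (GRCh38), written 5′ to 3′ on the mRNA strand, with the run in capitals in a window of 30 bases.

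EGFR run 1: caaggacacctgCCCCCCactcatgctcta
EGFR run 2: ccatcaccccaaCCCCCCaaaattagtttg
EGFR run 3: gctggggggccaCCCCCCagtgccactctc
ERBB3 run 1: ggcagaagctgtCCCCCCtgtcatgaggtt
ERBB3 run 2: ctggacatcaggCCCCCCatgtccattatg
AREG run 1: aggtagttaagCCCCCCCaaaacaagacgg
EREG run 1: cttagtctaactCCCCCattttacagattt

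EGFR lies on chr7:55019021-55211628 (plus strand), and its transcript of 9821 bases holds 3 runs of 6 C. Run 1 is in the coding part of exon 7 (chr7:55154055-55154060), and runs 2 and 3 are in the 3′ UTR in exon 28 (chr7:55206660-55206665 and chr7:55209006-55209011). ERBB3 lies on chr12:56076799-56103505 (plus strand), with its 2 runs of 6 in coding exons 5 and 28 (chr12:56087579-56087584 and chr12:56101931-56101936). AREG lies on chr4:74445134-74455009 (plus strand), and its run of 7 is in coding exon 3 (chr4:74449064-74449070). EREG lies on chr4:74365143-74388751 (plus strand), and its longest run has 5 C, in the 3′ UTR in exon 5 (chr4:74387696-74387700). Runs as long were common for EGFR, ERBB3 and EREG: among principal transcripts within 20% of their length, 62.6%, 55.6% and 90% had one. For AREG the share was 4.2%, so its run was long for so short a transcript. ERBB2 held 5 runs of 6 and ERRFI1 held 1, while the longest runs of HBEGF and TGFA had 5 C. The RUNX motif TGTGGT was looked for on both strands of RefSeq promoters (GRCh38.p14, 250 bases before to 50 after the start). It was in none of 9 entries for 7 members, and in 13.1% of all 35116 entries. ERBB3 had no entry, and 9 entries are too few to show whether the motif is rarer in these genes.

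EGFR was the member with the clearest difference, and it lay in the free fraction. EGFR measured 10.7 and 7.83 CPM in the WT free libraries and 284 and 365 CPM in the CBFB_KO free libraries. The groups were far apart, at 9.29 ± 2.06 against 325 ± 57.2 CPM. This was a 35-fold rise (log2 5.13, SE 0.70, adjusted p = 0.000447 by edgeR). In these libraries the counts behind it were 753 and 609 in WT and 6697 and 3612 in CBFB_KO, so the rise was present in the counts before scaling too. No other member was as high in any CBFB_KO free library.

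In the ribosome-bound fractions EGFR was not called. It measured 2.18 and 4.67 CPM in WT mono and 1.76 and 2.54 CPM in CBFB_KO mono, and the groups overlapped. In poly it measured 11.8 and 47.3 CPM in WT and 12.3 and 13.0 CPM in CBFB_KO, where the spread between the WT replicates was larger than the difference between genotypes. The log2 difference was -0.67 in mono (95% interval -2.00 to 0.66) and -1.23 in poly (interval -2.54 to 0.08). Without WT poly replicate 2 the poly difference was 0.11.

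**Figure D1:**
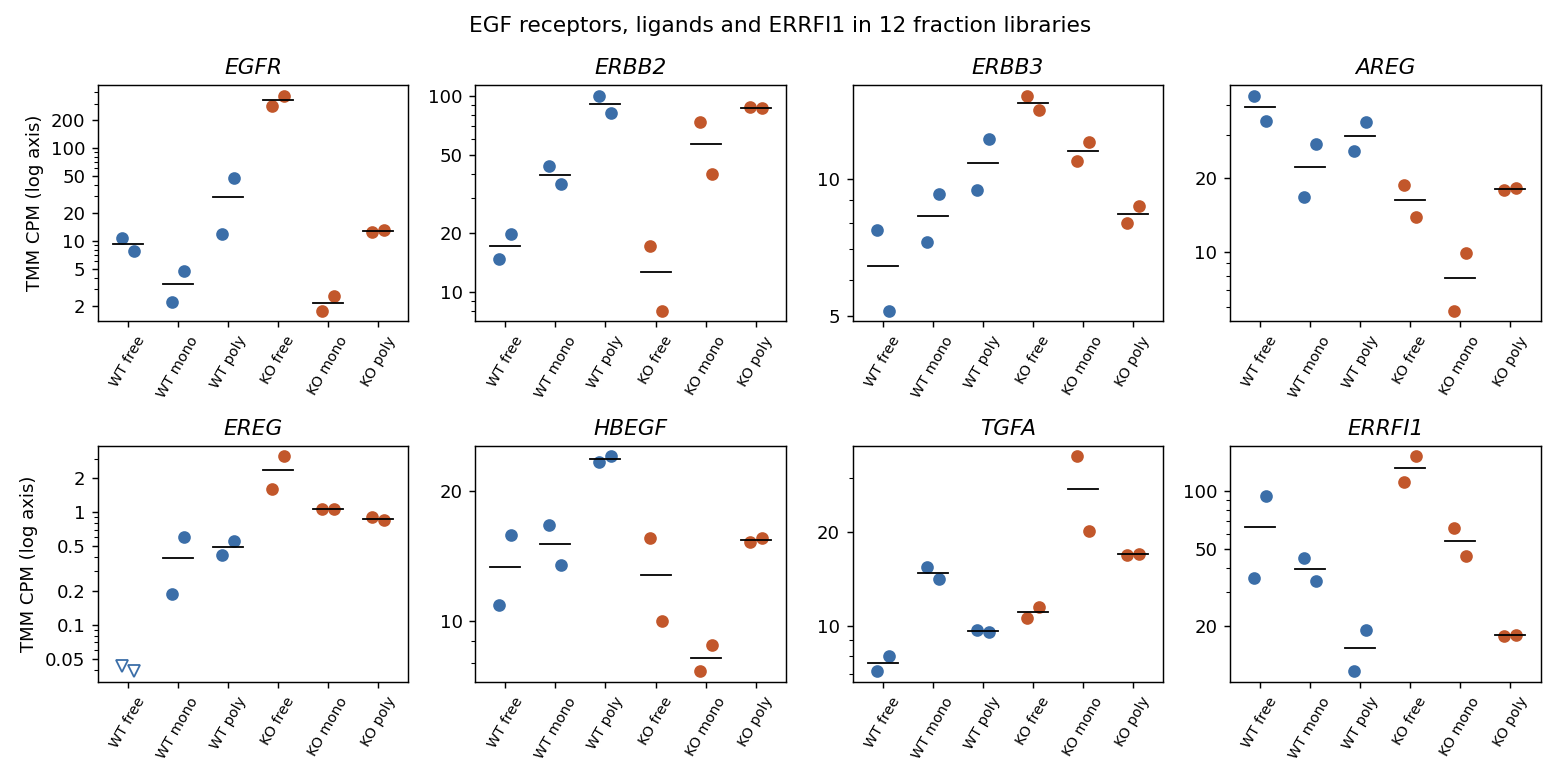
TMM CPM on a log axis for each of the 8 genes in the free, mono and poly libraries of WT (blue) and CBFB_KO (orange, written KO); points are libraries, replicate 1 on the left, bars are means of 2, and open triangles mark the level of 3 counts where a library had 0. EGFR stands at 284 and 365 CPM in CBFB_KO free and at 47.3 CPM or less in every other library.

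The poly to free ratio of EGFR therefore differed between genotypes. Taking libraries of 1 replicate number together, the ratio of CPM was 1.10 and 6.04 in WT and 0.0432 and 0.0355 in CBFB_KO. The WT values were spread, but the lower of them was above both CBFB_KO values. The interaction was log2 -6.35 (SE 0.91, adjusted p = 0.00116 by edgeR), or 81.8-fold lower in CBFB_KO. It was -5.02 without WT poly replicate 2 and -7.04 without WT poly replicate 1, and called in both. The mono to free ratio was lower in CBFB_KO too, at 0.203 and 0.597 in WT and 0.0062 and 0.00694 in CBFB_KO (log2 -5.80, SE 0.90, adjusted p = 0.00194, and -5.15 without WT mono replicate 2). The poly to mono ratio, which leaves out the free libraries, was 5.42 and 10.1 in WT and 6.96 and 5.11 in CBFB_KO. Its difference was log2 -0.55 (interval -2.41 to 1.30), not called. All 3 of these ratios share libraries with each other and with the comparisons above.

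Within a genotype, EGFR was 8.63-fold higher in poly than in mono in WT (adjusted p = 0.0078 by edgeR) and 5.88-fold higher in CBFB_KO (adjusted p = 0.02). Against free, EGFR in poly was 25.7-fold lower in CBFB_KO (adjusted p = 0.000718). In WT it was 3.18-fold higher but not called (adjusted p = 0.069). The WT poly to mono call was lost without WT mono replicate 1 (adjusted p = 0.0659) or WT poly replicate 2 (0.102). The CBFB_KO call was lost without either CBFB_KO mono library (0.136 and 0.112) or either CBFB_KO poly library (0.119 and 0.123). The WT poly to free difference was called without WT poly replicate 1 (log2 2.38, adjusted p = 0.0246).

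Transcript length moved with these results. Across 16275 genes, the change in the free fraction and the mean RSEM length had a Spearman rho of 0.44, given as a description since genes are not replicates. The longest 10% of genes had a median change of log2 2.46 in the free fraction, and the shortest 10% one of -1.06. EGFR, with a mean RSEM length of 6686 bases, was longer than 98% of the tested genes. With the length trend taken out of each library, EGFR was still called, at log2 2.47 in the free fraction (adjusted p = 0.00345) and -3.36 for the poly to free ratio (adjusted p = 0.00824). The trend was read at EGFR's mean length over the libraries. Whether length accounts for the difference was not tested. With library size in place of TMM scaling, which moved the median of all genes to -1.57 in the free fraction and 1.54 for the ratio, the values were 3.39 and -4.65.

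RSEM's length for EGFR, a mean over isoforms weighted by their level, differed between libraries. It was 1587 and 9821 bases in WT free, 2075 and 4627 in WT mono, and 7726 and 9475 in WT poly. It was 9611 and 9504 bases in CBFB_KO free, 2793 and 5285 in CBFB_KO mono, and 9088 and 8635 in CBFB_KO poly. WT free replicates were thus at opposite ends, and values per length moved with them: EGFR was at 8.60 and 1.01 FPKM in WT free, on 753 and 609 counts. The antisense gene EGFR-AS1 had 0 counts in every library. Whether the length reflects isoforms or sparse coverage was not tested.

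**Figure D2:**
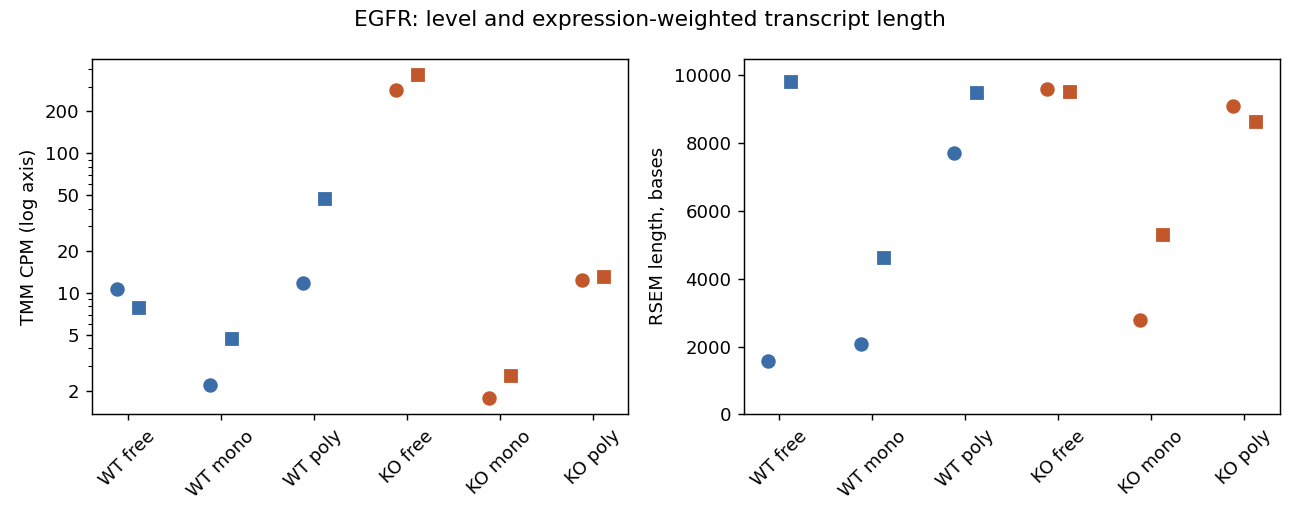
EGFR by group in WT (blue) and CBFB_KO (orange, written KO), replicate 1 as circles and replicate 2 as squares: TMM CPM on a log axis (left) and RSEM length in bases (right). The CBFB_KO free libraries are highest in level, and the WT free libraries lie at 1587 and 9821 bases at similar levels.

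ERBB2, the receptor that pairs with the others without a ligand of its own, did not follow EGFR. ERBB2 measured 14.6 and 19.6 CPM in WT free and 17.1 and 7.99 CPM in CBFB_KO free, where the lower value rested on 79 counts. The groups overlapped (log2 -0.44, interval -1.44 to 0.56). In mono it was at 43.9 and 35.4 CPM in WT and 73.6 and 40.0 CPM in CBFB_KO, and in poly at 100 and 81.3 against 87.2 and 87.1 CPM. These too overlapped between genotypes, and none was called. With the length trend removed ERBB2 was called lower in CBFB_KO free (log2 -2.06, adjusted p = 0.00469), and likewise with library size in place of TMM (-1.97, adjusted p = 0.038).

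What marked ERBB2 was its place on ribosomes in both genotypes. Its poly to free ratio was 6.87 and 4.14 in WT and 5.10 and 10.9 in CBFB_KO. ERBB2 was higher in poly than in free by log2 2.41 in WT (SE 0.48, adjusted p = 0.00611 by edgeR) and by 2.79 in CBFB_KO (SE 0.49, adjusted p = 0.00186). Without CBFB_KO free replicate 1 the CBFB_KO value was 3.48. Both calls held under all 21 alternatives, and the ratio did not differ between genotypes beyond its error (log2 0.38, interval -1.03 to 1.79).

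ERBB3, the receptor bound by neuregulins, had a small rise in the free fraction. It measured 7.71 and 5.13 CPM in WT free and 15.3 and 14.2 CPM in CBFB_KO free, with no overlap. The fit gave a 2.29-fold difference (log2 1.20, SE 0.36, adjusted p = 0.0228 by edgeR). The call was lost without WT free replicate 2 (adjusted p = 0.118) and without CBFB_KO poly replicate 1 or 2 (0.0569 and 0.057). With library size in place of TMM scaling the direction turned (log2 -0.46, adjusted p = 0.456).

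In the other fractions ERBB3 was at 7.26 and 9.28 CPM in WT mono, 11 and 12.1 in CBFB_KO mono, 9.46 and 12.2 in WT poly, and 8.02 and 8.70 in CBFB_KO poly. The order of the genotypes thus changed from mono to poly, by differences that were not called. Its poly to free ratio was 1.23 and 2.38 in WT and 0.526 and 0.614 in CBFB_KO. This difference fell just short of the threshold (log2 -1.57, SE 0.50, adjusted p = 0.0506 by edgeR). It passed in 5 of 21 alternatives, DESeq2 among them (adjusted p = 0.0201), and without WT free replicate 1 (0.0429) or CBFB_KO free replicate 1 (0.0499).

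AREG, the ligand amphiregulin that mammary epithelium makes in quantity, was the member that fell in the free fraction. AREG measured 43.5 and 34.4 CPM in WT free and 18.8 and 13.9 CPM in CBFB_KO free. Both CBFB_KO values lay below both WT values, a 2.38-fold difference (log2 -1.25, SE 0.42, adjusted p = 0.0333 by edgeR). The call was lost without any 1 of 6 libraries, namely WT free replicate 1 (adjusted p = 0.117), CBFB_KO free replicate 2 (0.137), either WT poly replicate (0.0531 for each) and either CBFB_KO poly replicate (0.0698 for each). With the length trend removed the difference was log2 -0.21 (adjusted p = 0.669).

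AREG was also lower in CBFB_KO in the other fractions, at 5.78 and 9.95 against 16.8 and 27.6 CPM in mono and at 18.0 and 18.2 against 25.8 and 34.0 CPM in poly. Its log2 differences there were -1.50 (interval -2.42 to -0.58, adjusted p = 0.502) and -0.72 (interval -1.62 to 0.18, adjusted p = 1), not called over all genes. The groups did not overlap in any of the 3 fractions. The poly to free ratio was 0.593 and 0.987 in WT and 0.955 and 1.32 in CBFB_KO, with overlap. Reads of AREG can be shared with a near-identical copy, AREGB (ENSG00000205595), which had 0 to 32.2 counts in 10 libraries, 41.4 in WT poly replicate 1 and 271 in WT free replicate 1. AREG itself had 3050 counts in that last library, and its call was the same with the copy added.

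EREG, the ligand epiregulin, was the scarcest member. It had 0 counts in both WT free libraries and 38 and 31 counts in the CBFB_KO free libraries, or 1.61 and 3.14 CPM. Against a floor of 3 counts per WT library, and after TMM scaling, it was at least 58.3-fold higher in CBFB_KO free (adjusted p = 0.000469 by edgeR). This bound and the EREG bounds below rest on that scaling. Its factors were 0.494 and 0.241 in CBFB_KO free and 1.124 and 1.241 in WT free. EREG was also called with library size in place of TMM (adjusted p = 0.0021), where no bound was computed. Of the 16275 tested genes, 881 (5.41%) were at 0 in both WT free libraries, against 1.09% to 3.02% in the other groups. EREG was at 11 and 28 counts in WT mono and at 44 and 50 in WT poly, so it was not absent from WT cells.

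In mono EREG was at 0.189 and 0.603 CPM in WT and 1.06 and 1.08 CPM in CBFB_KO, and in poly at 0.421 and 0.552 against 0.907 and 0.850 CPM. The CBFB_KO values were higher in each fraction without overlap, but the mono and poly differences were not called (log2 1.43, interval -0.30 to 3.17, and 0.85, interval -0.83 to 2.53). In WT, EREG was at least 12-fold higher in poly than in free (adjusted p = 0.00344 by edgeR). In CBFB_KO the poly to free ratio was 0.562 and 0.271, both below 1. The poly to free ratio was thus at least 32.3-fold higher in WT than in CBFB_KO (interaction adjusted p = 0.00334) and the mono to free ratio at least 21.7-fold higher (0.00502). Counts under 100 stand behind every EREG value.

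HBEGF, a ligand that binds EGFR and heparin, measured 10.9 and 15.8 CPM in WT free and 15.5 and 10.0 CPM in CBFB_KO free. These overlapped (log2 -0.06, interval -0.86 to 0.74), though with library size in place of TMM the difference was -1.66 and called (adjusted p = 0.0342 by edgeR). It was lower in CBFB_KO in mono, at 7.65 and 8.80 against 16.7 and 13.5 CPM, and in poly, at 15.3 and 15.6 against 23.4 and 24.0 CPM. Neither difference was called (log2 -0.88, interval -1.68 to -0.08, and -0.62, interval -1.42 to 0.17, adjusted p = 1 for both).

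TGFA, a ligand of EGFR made by many epithelia, had higher values in CBFB_KO. TGFA measured 7.14 and 8 CPM in WT free and 10.6 and 11.5 CPM in CBFB_KO free. It was at 15.5 and 14.2 against 35.1 and 20.2 CPM in mono, and at 9.69 and 9.53 against 16.9 and 17.0 CPM in poly. CBFB_KO was higher in each fraction without overlap, by log2 0.55 (interval -0.24 to 1.33), 0.90 (0.12 to 1.68) and 0.82 (0.04 to 1.60). None was called (adjusted p 0.236, 0.977 and 1). In the free fraction the direction turned with library size in place of TMM (log2 -1.16) and with the length trend removed (-0.59), neither of them called.

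ERRFI1, the inhibitor that EGFR signalling itself induces, was lower in poly than in free in both genotypes. It measured 35.5 and 94.3 CPM in WT free and 112 and 151 CPM in CBFB_KO free. In mono it was at 45.1 and 34.4 CPM in WT and 64.1 and 46.2 CPM in CBFB_KO, and in poly at 11.7 and 19.1 against 17.8 and 18.1 CPM. The free and mono values of WT overlapped. The poly to free ratio was 0.329 and 0.203 in WT and 0.159 and 0.120 in CBFB_KO, all well below 1. ERRFI1 was lower in poly than in free by log2 -2.07 in WT (SE 0.51, adjusted p = 0.0154 by edgeR) and by -2.87 in CBFB_KO (SE 0.52, adjusted p = 0.00234). The WT call was lost without WT free replicate 2 (log2 -1.10, adjusted p = 0.11) or either WT poly replicate (0.134 and 0.0712). With library size in place of TMM neither was called, at log2 -1.55 in WT (adjusted p = 0.11 by edgeR) and -0.57 in CBFB_KO (adjusted p = 0.469).

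Between genotypes ERRFI1 was not called in any fraction. In free the difference was log2 1.02 (interval -0.06 to 2.09, adjusted p = 0.114), where the 2 WT libraries lay far apart (64.9 ± 41.6 CPM). Without WT free replicate 2 it was log2 1.81 and called (adjusted p = 0.0233), and with library size in place of TMM it was -0.78 and not called. ERRFI1 was also lower in poly than in mono in CBFB_KO (log2 -1.62, adjusted p = 0.0462). That call was lost without any 1 of 8 libraries: WT mono replicate 1 (0.0639) or 2 (0.0642), WT poly replicate 1 (0.068) or 2 (0.0685), CBFB_KO mono replicate 1 (0.201) or 2 (0.125), and CBFB_KO poly replicate 1 (0.274) or 2 (0.269).

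**Figure D3:**
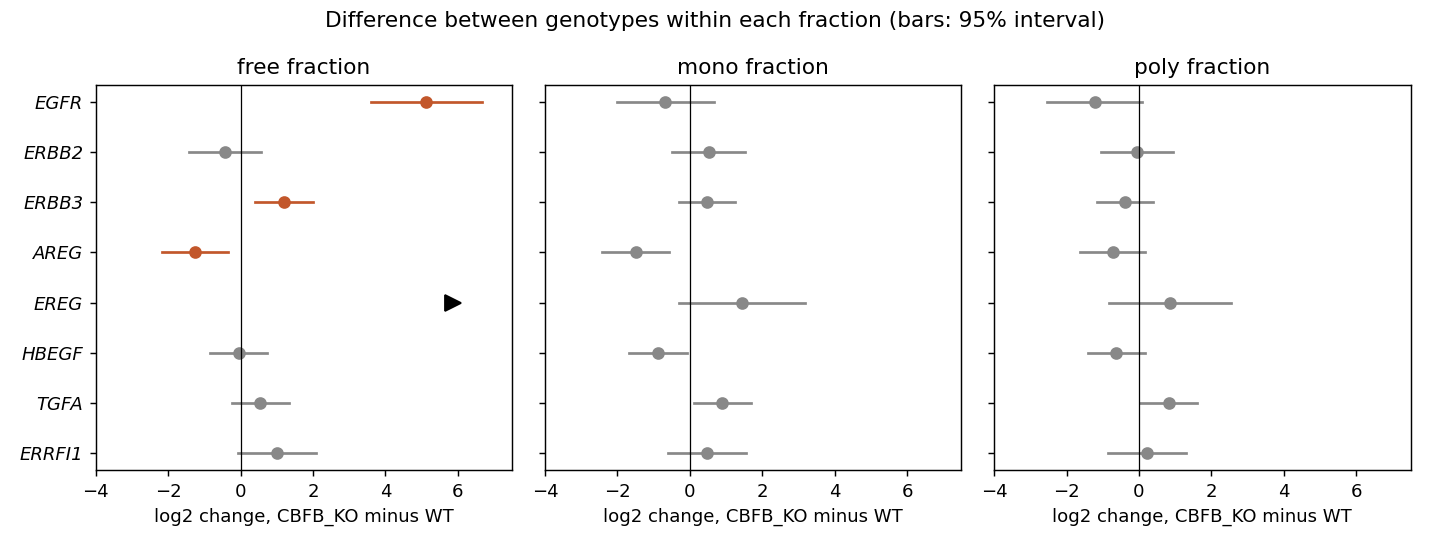
Log2 change of each gene, CBFB_KO minus WT, in the free, mono and poly fractions; points are edgeR estimates, bars their 95% intervals, orange marks an adjusted p under 0.05, and the black triangle is the lower bound for EREG, which had 0 counts in WT free. EGFR, ERBB3, AREG and EREG pass in the free fraction and no gene passes in mono or poly.

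In the free fraction 4 of 8 members were called, 3 higher (EGFR, ERBB3 and EREG) and 1 lower (AREG). Of all genes tested 42.3% were called there, so the count of members was near the background. With the 4 free libraries fitted alone EGFR and EREG were called. The median log2 change of the 8 was 0.78 and that of all genes 0.04. In mono 0 members were called by edgeR, 3 had an unadjusted p under 0.05 (AREG, HBEGF and TGFA), and DESeq2 also called 0. The background was 0.147% of genes. In poly 0 were called by edgeR, 1 had an unadjusted p under 0.05 (TGFA), and DESeq2 called 0, with a background of 0.19%. The mono and poly libraries thus gave few calls for any genes.

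For the ratios between fractions, 2 of 8 members had a lower poly to free ratio in CBFB_KO (EGFR and EREG), against 18.4% of all genes called in either direction. The same 2 had a lower mono to free ratio, against 19%. For the poly to mono ratio edgeR called 0 members, with 0 at an unadjusted p under 0.05, DESeq2 called 0, and the background was 0%. Within WT 3 members differed between poly and free (ERBB2 and EREG higher, ERRFI1 lower), against 22% of genes. Within CBFB_KO it was also 3 (ERBB2 higher, EGFR and ERRFI1 lower), against 31.4%. Between poly and mono 1 member was called in WT (EGFR higher), against 20.6%, and 2 in CBFB_KO (EGFR higher, ERRFI1 lower), against 16.9%.

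**Figure D4:**
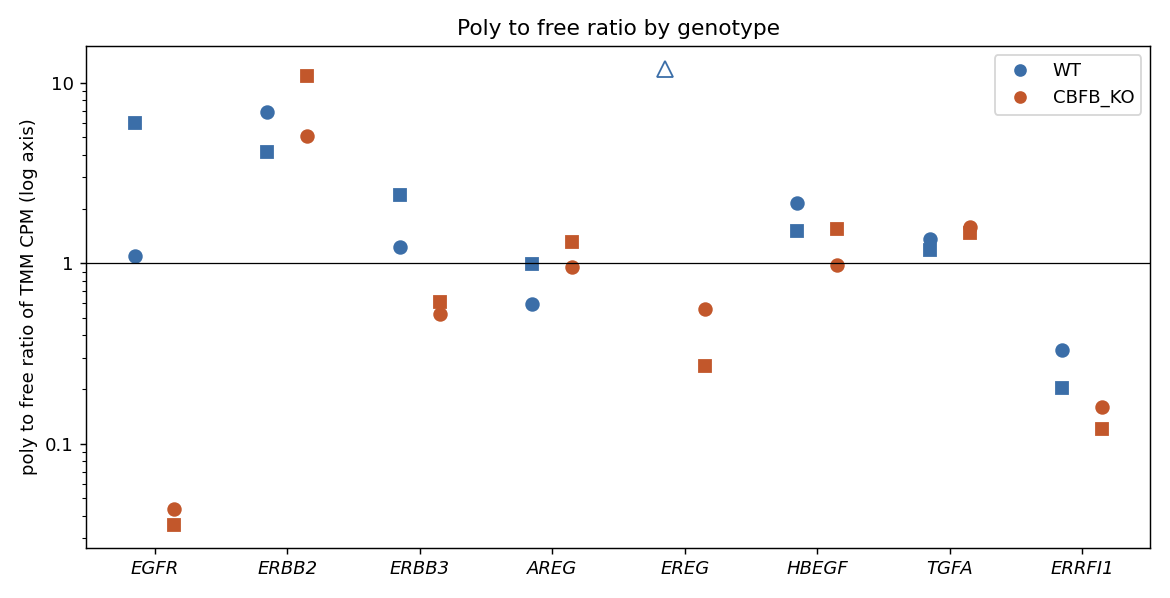
Poly to free ratio of TMM CPM on a log axis for each gene in WT (blue) and CBFB_KO (orange), with replicate 1 as circles and replicate 2 as squares; the line marks 1 and the open triangle is the lower bound for EREG in WT. EGFR lies at 1.10 and 6.04 in WT and at 0.0432 and 0.0355 in CBFB_KO, while ERBB2 is above 1 and ERRFI1 below 1 in both genotypes.

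A poly to free ratio in CBFB_KO below 0.5 of that in WT was also looked for in the deposited FPKM values, with no test. The averages of both genotypes reached 1 FPKM in free and poly for 7126 genes, and 577 of them (8.1%) met the rule. EREG was under this minimum, and of the other members 1 (EGFR) met the rule, at 0.169 of the WT ratio. Its mean FPKM was 4.8 in free and 5.86 in poly in WT, and 12.2 and 2.51 in CBFB_KO. The other members that reached the minimum ranged from 1.83 for ERRFI1 to 7.37 for TGFA. FPKM counts the mitochondrial share of each library in its total, and by TMM CPM these 6 ranged from 0.336 for ERBB3 to 1.44 for AREG. EGFR's value ranged from 0.0175 with WT replicate 2 and CBFB_KO replicate 1 to 0.938 with WT replicate 1 and CBFB_KO replicate 2. It was above 0.5 in both pairings with WT replicate 1, whose free library had the short RSEM length.

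Levels per length place the members against each other. As TPM over genes outside the mitochondrial genome, AREG was the highest member in WT free at 41.2 ± 0.381, followed by ERRFI1 at 26.5 ± 20.1, whose range did not reach it. HBEGF (6.99 ± 2.94), ERBB3 (6.61 ± 1.52), ERBB2 (5.18 ± 0.853), TGFA (4.4 ± 2.78) and EGFR (4.31 ± 4.66) then overlapped from neighbour to neighbour, and EREG was at 0. In CBFB_KO free ERRFI1 was first at 80.6 ± 2.85 and EGFR next at 59.9 ± 0.868, apart from each other and from AREG at 28.6 ± 10.6. By group means EGFR thus stood in the seventh place in WT free and in the second in CBFB_KO free. EREG was last in both groups, at 1.16 ± 0.476 in CBFB_KO free. The place of EGFR in WT free is uncertain. Its replicates there were at 7.6 and 1.02 TPM, with RSEM lengths of 1587 and 9821 bases. In replicate 1 it lay just under ERBB3 at 7.69 TPM.

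In poly AREG led in WT at 44.6 ± 12.7 TPM and ERBB2 followed at 34.0 ± 1.98, with ranges that did not overlap. In CBFB_KO poly ERBB2 led at 30.1 ± 0.177 and AREG followed at 24.3 ± 0.342. EGFR was at 5.34 ± 4.34 in WT poly and 2.05 ± 0.16 in CBFB_KO poly, and EREG was last at 0.225 ± 0.0282 and 0.276 ± 0.0144. In mono AREG led in WT at 11.8 ± 2.80 and ERRFI1 in CBFB_KO at 10.9 ± 5.09, with ERRFI1 and ERBB2 next and no gap between the ranges of each pair. EGFR in mono was seventh in both, at 0.631 ± 0.11 and 0.332 ± 0.146.

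Each member's most alike genes, by Pearson's r of log2 CPM over the 12 libraries, differed from member to member. EGFR was closest to SON (r = 0.996) and SLC38A2 (0.993), and ERBB2 to TWNK (0.987) and HR (0.982). ERRFI1 was closest to SLC35G1 (0.974) and MUC3A (0.952), EREG to ZSCAN16 (0.973) and CDYL2 (0.966), and TGFA to EBI3 (0.964) and IGF2BP2-AS1 (0.953). HBEGF (CDK5RAP3 0.945, TNK1 0.933), AREG (FZD10 0.933, KLRG2 0.926) and ERBB3 (FARP2 0.925, TCAF1 0.899) had looser matches. The libraries share groups, depth and scaling, so these are descriptions. The genes closest to EREG, TGFA and AREG were scarce, with mean log2 CPM from -1.45 down to -2.65. Among the members themselves the highest r was 0.81 (ERBB3 and EREG) and the lowest -0.90 (AREG and TGFA). After TMM scaling AREG was lower and TGFA higher in CBFB_KO than in WT in each fraction. EREG was higher in each fraction too, and its r with AREG was -0.64. The part of genotype in these r values was not tested.

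Other genes of the pathway were read from a list of 59 genes, of which 57 were tested (EGF and ERBB4 were too low, at 0.204 CPM or less). In the free fraction 26 were called higher and 7 lower in CBFB_KO, 57.9% against 42.3% of all genes, with a median log2 change of 1.80 against 0.04. Fitting library size in place of TMM gave 14 higher and 16 lower, and removing the length trend gave 16 higher and 12 lower with a median of 0.25. In mono and in poly 0 of 57 were called by edgeR. The poly to free ratio was lower for 21 and higher for 0, 36.8% against 18.4% of all genes, and the mono to free ratio lower for 22 and higher for 1 (DUSP4), 40.4% against 19%. Both counts rested on single libraries. Lower poly to free ratios numbered 9 without either CBFB_KO poly replicate and 13 without WT poly replicate 2, while 9 were higher and 24 lower without CBFB_KO free replicate 1. The mono to free ratio was lower for 13 without CBFB_KO mono replicate 1 and for 15 without WT mono replicate 2, and higher for 9 and lower for 23 without CBFB_KO free replicate 1. With library size in place of TMM 4 were higher and 5 lower for poly to free, and 4 higher and 10 lower for mono to free. Removing the length trend gave 4 higher and 11 lower, and 4 higher and 12 lower.

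By role, the adaptors and proximal signalling genes had 6 of 9 called higher in the free fraction and 0 lower. Of all genes tested, 24.2% were called higher there and 18.1% lower. Counts by role are descriptions of few genes, given for the fit with TMM only. The guanine exchange factor SOS1, which activates RAS, was at 2.17 and 1.76 CPM in WT and 43.5 and 62.7 CPM in CBFB_KO (log2 4.75, SE 1.16, adjusted p = 0.00936 by edgeR). The docking protein GAB1 was at 0 and 0.154 CPM in WT and 6.50 and 11.4 CPM in CBFB_KO. Receptor downregulation and feedback genes had 7 of 14 higher and 2 lower (SPRY2 and DUSP4). Among them CBL, a ubiquitin ligase that sends EGFR to degradation, was at 1.17 and 0.476 CPM in WT and 35.2 and 54.2 CPM in CBFB_KO (log2 5.76, SE 0.68, adjusted p = 0.000186). Its relative CBLB was at 0.400 and 0.682 against 19.1 and 36.4 CPM, and SPRED2, a brake on RAS signalling, at 9.02 and 6.56 against 226 and 290 CPM. These groups did not overlap.

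The ligand shedding genes had 2 of 4 higher (ADAM10 and ADAM17). ADAM17, the main protease that frees AREG, EREG, HBEGF and TGFA, had 0 counts in both WT free libraries and 125 and 100 in CBFB_KO free. After TMM scaling ADAM17 was at least 190-fold higher in CBFB_KO free. On the same scaling its poly to free ratio was at least 268-fold and its mono to free ratio at least 169-fold higher in WT. Other ligands had 2 of 5 higher (EPGN and NRG4). The RAS and MAPK cascade had 4 of 10 higher and 3 lower. PI3K and AKT had 2 of 7 higher (PIK3CA and PIK3R1), or 28.6%, near the 24.2% of all genes. Transcription targets had 3 of 8 higher (PHLDA1, ETV5 and CCND1) and 2 lower (FOS and IER3). Past the genes named above, the larger changes of the ratios were those of ETV5, a factor induced by MAPK signalling (poly to free log2 -4.65, SE 0.56, adjusted p = 0.000543 by edgeR), and PIK3CA, a PI3K catalytic subunit (mono to free log2 -5.63, SE 1.01, adjusted p = 0.00435).

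**Figure D5:**
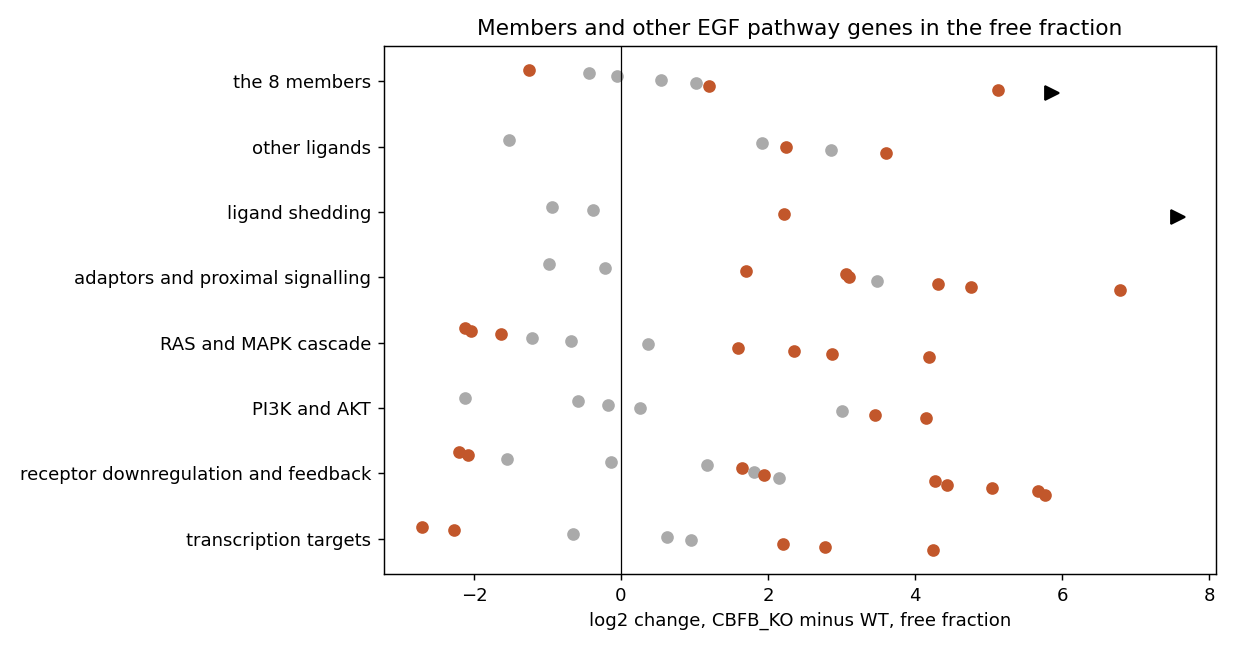
Log2 change, CBFB_KO minus WT, in the free fraction for the 8 members and 57 other genes of the pathway by role; orange marks an adjusted p under 0.05 by edgeR, grey the rest, and black triangles are lower bounds for EREG and ADAM17, at 0 counts in WT free. In the adaptor row 6 of 9 genes pass on the higher side and none on the lower, while the cascade row has 4 higher and 3 lower. Of all genes tested, 24.2% were called higher and 18.1% lower.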

How the data were processed

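RNA of 12 libraries (WT and CBFB_KO MCF10A, free, mono and poly fractions, 2 replicates each) was analysed from 1 table per library. The submitters' processing notes name Trimmomatic, STAR, RSEM and hg19, while versions, annotation release and strand setting are not given in the sources used here. The labels name a TruSeq mRNA kit and a NextSeq 500, and the paper's general methods rRNA removal and a HiSeq2500. The expected counts deposited by the authors are RSEM's unnormalized estimates. The TPM and FPKM values deposited by the authors were scaled by RSEM for length and library total. A table of gene names gave symbols for 38892 of 56632 identifiers.

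Counts were rounded. In R 4.3.3, edgeR 4.0.16 and limma 3.58.1 gave TMM, filterByExpr, a mean per group over all 12 libraries and quasi-likelihood tests. Intervals are 95% and floors are 3 counts, which cover counting error only. TPM was rescaled without the 37 genes of the mitochondrial genome. The code of the fit was run on simulated counts that had 1 spread for all genes and groups. The real replicate SD of log2 CPM was 0.27 in CBFB_KO poly and 1.22 in WT free. The simulation is therefore no check on the calls in these libraries. DESeq2 1.42.0 and other settings were alternatives, and figures were drawn with matplotlib. Sequences and positions are GENCODE release 29 (GRCh38) and RefSeq (GRCh38.p14), not the build of the counts.

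Members, pathway list and tests were chosen with earlier results of these data known. Named genes were the members, CBFB, copies or antisense genes, at most 6 called pathway genes of the larger changes per comparison, and the 2 genes most alike each member. Other called pathway genes (such as EPGN, NRG4 and FOS) were named after their values were seen. Single genes of the RAS and MAPK cascade are not reported here.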

Additional observations from a re-analysis of the deposited data

Results flagged for a closer look

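The difference between genotypes depended on the fraction for 2 members, by the interaction term of the edgeR fit. The poly to free ratio of EGFR in CBFB_KO over that in WT was log2 -6.35, and the mono to free ratio -5.80. EREG was at 0 counts in WT free. After TMM scaling, its poly to free ratio was at least 32.3-fold higher in WT than in CBFB_KO. The same bound for its mono to free ratio was 21.7-fold. Of all genes, 18.4% and 19% were called for these ratios. The CBFB_KO free libraries behind all 4 values held 71.6% and 87.2% mitochondrial counts, whose part in them was not tested.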

How the results depend on the processing

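Each result was recomputed under 12 fits that leave out 1 library and up to 9 other settings. The lone library of a group that is left is then assumed to vary like the other groups. The calls of EGFR and EREG in the free fraction and for the poly to free and mono to free ratios, and those of ERBB2 between poly and free in both genotypes, held in every alternative run. EGFR ranged from log2 2.47 to 5.37 in the free fraction and from -7.04 to -3.36 for the poly to free ratio. Of 1680 member values under alternatives, 39 lost and 40 gained a call with the direction kept. The direction changed in 45, and 2 of these are named reversed, being past the threshold in 1 of the fits compared. The reversed values, both with library size in place of TMM, were ERBB3 in the free fraction (log2 -0.457) and ERBB3 between poly and free in CBFB_KO (1.394, called). That setting moved the median change of all genes in the free fraction from 0.04 to -1.57 and its calls from 3943 higher and 2939 lower to 1281 and 6461, so changes there are relative to the scaling.

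Leaving out 1 library, the number of members called ranged from 2 to 4 in the free fraction, 0 to 2 for poly versus mono in WT, and 0 to 4 for poly versus mono in CBFB_KO. In the free fraction it was 2 with the CBFB_KO poly libraries averaged as 1 and 2 with only the 4 libraries of the fraction. For poly versus free in CBFB_KO it was 6 with library size only, where 8235 of 16275 genes were called, and 5 with the length trend removed (5373 genes), against 5104 genes in the fit reported. The length setting gave 5 for the poly to free ratio (2358 genes), 4 for the mono to free ratio (2665) and 3 for poly versus mono in WT (2345), against 3000, 3099 and 3360. DESeq2 gave 3 and 4 for poly versus mono in WT and CBFB_KO (4745 and 4237 genes, against 3360 and 2744), where the gradient as a block gave 1 and averaging gave 0 in CBFB_KO. The FPKM rule gave 2 members with CPM (2935 of 9467 genes), 3 after dividing by the median change (2274 of 7126) and 0 in both pairings with WT replicate 1 (705 of 7474 and 380 of 4909), against 577 of 7126 genes as reported. In all genes, mono calls went from 24 to 118 and poly calls from 31 to 109 with DESeq2, and poly to free ratio calls from 3000 to 823 with the CBFB_KO poly libraries averaged. The causes were not tested.

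With the replicate number as a block the count of members was 4 in the free fraction and 3 for the poly to free ratio, where ERBB3 was called (adjusted p = 0.0492 by edgeR). The labels do not say that a number marks a shared day, and replicate differences correlated between groups by -0.16 to 0.279, over 0.1 in 5 of 15 pairs of groups. Depth limits EREG and ERBB2 in CBFB_KO free, with as few as 31 and 79 counts.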
